A study of Mus musculus with 8 samples.

Results

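The effect of deleting Meis1 was followed in the megakaryocytes of the mouse aorta-gonad-mesonephros (AGM) at embryonic day 10.5. Members were taken by the deposited annotation: every cell whose type is given as Megakaryocytes, which was 359 of 15168 cells, 192 from WT and 167 from Meis1-flox/VE-Cre embryos. The cells were sorted for CD31 and profiled by CITE-seq, in which each cell yields its transcripts, counted as unique molecular identifiers (UMIs), and the tags of antibodies bound to its surface. The 5 WT libraries came from C57BL/6 embryos as labelled. The 3 Meis1-flox/VE-Cre libraries came from embryos with loxP sites around exon 8 of Meis1. Their Cre was driven by the VE-cadherin promoter, which is active in endothelium. The deposited names of WT 5 cells start with Mf, which no other library has and no label explains. The paper also uses WT for floxed littermates without Cre, and whether any WT library here came from such embryos was not tested. Each library pooled 2 to 5 embryos, so a library is the replicate and embryos cannot be told apart. Since the Cre acts in endothelium, a blood cell carries the deletion where it descends from an endothelial cell in which Cre had acted. Whether Cre also acted in blood cells was not tested, and cells that had escaped the deletion were not separated from the rest.

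Megakaryocytes are the large, polyploid blood cells that shed platelets. They carry integrin αIIb (CD41, encoded by Itga2b), the GPIb-V-IX receptor and granules filled with Pf4 and other platelet proteins, and the early wave that forms in the yolk sac shares a bipotent progenitor with primitive red cells. Meis1 is a homeodomain protein of the TALE class that binds DNA with Pbx and Hox proteins, and mouse embryos without it are known to lack platelets and to bleed. Gata1, Fli1, Runx1 and Tal1 are among the factors that build the megakaryocyte programme.

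WT 1 to 5 held 33, 28, 5, 24 and 102 megakaryocytes, and Meis1-flox/VE-Cre 1 to 3 held 64, 65 and 38. Counts were summed per library where at least 10 megakaryocytes were present, which left out WT 3 and kept 354 cells, 187 WT and 167 Meis1-flox/VE-Cre. These sums held between 812359 and 2404270 UMIs. The libraries differed in depth along with genotype: the median megakaryocyte held 21111, 48993.5, 48159 and 19977 UMIs in WT 1, 2, 4 and 5, and 16930.5, 13890 and 15649.5 in Meis1-flox/VE-Cre 1 to 3. WT 5 was the only WT library sequenced to a depth like that of the Meis1-flox/VE-Cre libraries over all cells (median 12720.5 UMIs against 11772, 9611.5 and 14895) and the only one that, like them, carried the CD44 tag, so each main comparison was repeated against WT 5 alone. In that repeat the single WT library is assumed to vary as the Meis1-flox/VE-Cre libraries do. All 359 cells expressed at least 3 of 12 megakaryocyte markers. Summed over those markers the level ran from 14273 to 44096 counts scaled to equal library totals (CPM) in the 7 libraries, and Pf4 alone from 10868 to 34746 CPM in megakaryocytes against 5.36 to 58.9 CPM in the erythro-myeloid progenitors (EMP) of the same libraries. None of the 359 barcodes occurred in another library.

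Meis1 itself spans chromosome 11 from 18880428 to 19019651 (GRCm38). It was measured at 165.7, 115.1, 79.5 and 114.0 CPM in WT 1, 2, 4 and 5, and at 51.9, 71.6 and 51.7 CPM in Meis1-flox/VE-Cre 1 to 3. The groups did not overlap. The means were 118.6 ± 35.5 CPM (SD, n = 4) and 58.4 ± 11.4 CPM (SD, n = 3), with p = 0.0571 in a two-sided exact permutation test, for which 0.0286 is the smallest p these group sizes allow. In the fit over all genes the log2 fold change was -1.0 (SE 0.27) with an adjusted p of 0.297 by edgeR. In EMP the same contrast gave a log2 fold change of -1.22 (adjusted p = 0.00722), and the difference between the cell types was 0.29 (SE 0.27, adjusted p = 0.783). The reads come from the 3′ ends of transcripts, and in the full-length transcript Meis1-001 the loxP-flanked exon, 146 bases long, ends 1814 bases before the 3′ end (GENCODE M1), so the counts report the amount of Meis1 RNA and do not show whether exon 8 was removed.

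At a common depth of 5000 UMIs per cell, Meis1 was detected in 51.5, 25.0, 12.5 and 45.1% of megakaryocytes in WT 1, 2, 4 and 5 and in 15.6, 27.7 and 23.7% in Meis1-flox/VE-Cre 1 to 3. The groups overlapped, and the means of 33.5 ± 18.0% (SD, n = 4) and 22.3 ± 6.15% (SD, n = 3) did not differ beyond their spread (two-sided exact permutation test, p = 0.371). At a depth of 3000 UMIs the shares were 35.2 ± 1.81% (SD, n = 4) and 15.3 ± 6.77% (SD, n = 3), which did differ (exact permutation test, p = 0.0286, the smallest possible). Each depth rests on a single random draw of UMIs from each cell, and the WT mean was no lower at 3000 than at 5000 UMIs. Whether the depth or the draw changed the call was not tested. Without thinning, the shares were 88.2 to 100% in WT and 46.9 to 60.5% in Meis1-flox/VE-Cre, where depth and genotype cannot be told apart. Arterial endothelial cells, which hold little Meis1 RNA, gave thinned shares of 0 to 1.33%, at median depths of 7034.5 to 21624 UMIs. Thus Meis1 RNA was still found in megakaryocytes of all 3 Meis1-flox/VE-Cre libraries above that background.

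The genotype comparison over 7770 genes called 16 genes at an adjusted p under 0.1 in edgeR's quasi-likelihood test (0.206% of the genes tested), of which 11 were higher (0.142%) and 5 lower (0.0644%) in Meis1-flox/VE-Cre. At an unadjusted p under 0.05 there were 686 genes. The higher genes were Csf2rb2, Aqp8, Fcna, Hfe2, Csf2rb, Ackr1, Tmod1, Pim2, Cpox, Hexim2 and Ptp4a3, and the lower genes were Nrarp, Serpinb2, Kcnj5, Bmyc and Mtss1l. All 16 separated the groups with no overlap between libraries, against 9.63% of all genes tested (5.02% higher and 4.61% lower). The calls were made on these same values, so the separation adds no support to them. None of the 16 is in a gene list of this report.

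**Figure D1:**
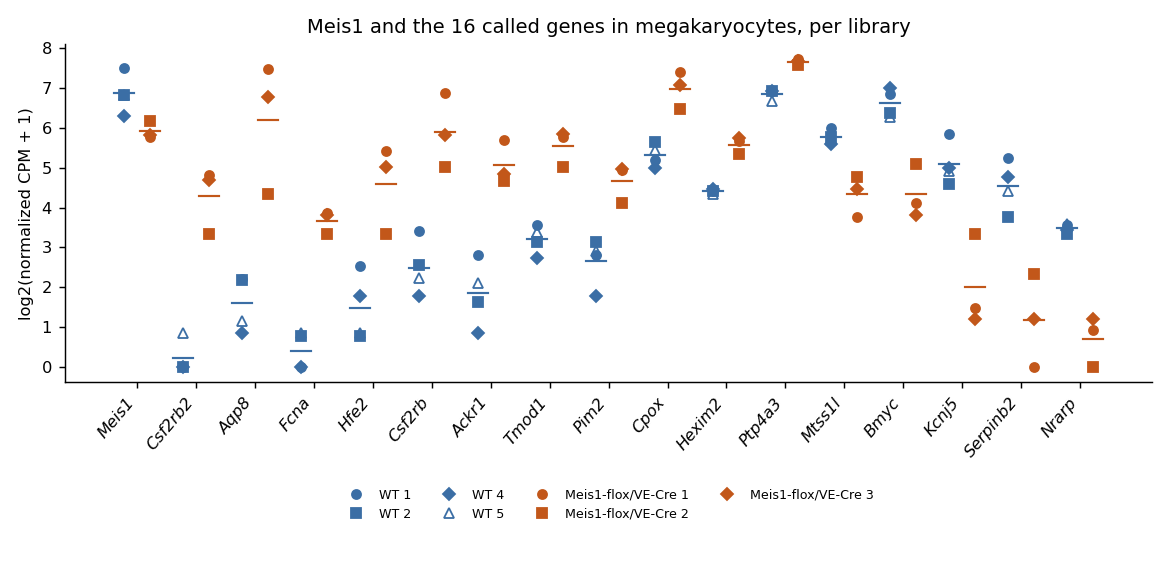
Level of Meis1 and the 16 called genes in summed megakaryocytes, as log2(normalized CPM + 1), 1 point per library, with WT in blue (WT 5 as an open triangle), Meis1-flox/VE-Cre in orange and bars at group means. For every gene shown, the Meis1-flox/VE-Cre points lie wholly above or wholly below the WT points, and Meis1-flox/VE-Cre 2 lies nearest to WT for Aqp8, Csf2rb and Cpox.

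Among the higher genes, 3 encode receptors or surface proteins of blood cells. Csf2rb is the common β chain of the receptors for IL-3, GM-CSF and IL-5. Its normalized CPM was 9.56, 4.94, 2.44 and 3.68 in WT 1, 2, 4 and 5 and 115.7, 31.3 and 55.2 in Meis1-flox/VE-Cre 1 to 3, a log2 fold change of 3.84 (SE 0.49, adjusted p = 0.0163). Csf2rb2, the neighbouring β chain of the mouse IL-3 receptor, was counted 2 times in WT and 58 times in Meis1-flox/VE-Cre megakaryocytes, a ratio of 58.6 (exact 95% interval 15.5 to 495.1, counting error only). The coding sequences of these neighbours on chromosome 15 are nearly alike, so reads could have been split between them and the separate values are uncertain. Ackr1, the Duffy antigen, known from red cells and venules, was 5.97, 2.12, 0.81 and 3.27 normalized CPM in WT and 50.6, 24.3 and 27.6 in Meis1-flox/VE-Cre (log2 fold change 3.55, SE 0.44, adjusted p = 0.0163).

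Tmod1 and Cpox belong to the making of red cells. Tmod1, tropomodulin 1, caps actin filaments in the erythrocyte membrane skeleton and was 10.8, 7.76, 5.69 and 9.41 normalized CPM in WT against 53.3, 31.3 and 56.5 in Meis1-flox/VE-Cre. The log2 fold change was 2.47 (SE 0.29, adjusted p = 0.0163). Cpox, coproporphyrinogen oxidase of heme synthesis, was 35.8, 49.4, 30.9 and 42.6 normalized CPM in WT against 168.1, 88.0 and 134.0, a log2 fold change of 1.70 (SE 0.24, adjusted p = 0.0218). The water channel Aqp8 rose from 3.58, 3.53, 0.81 and 1.23 to 178.0, 19.2 and 107.7 normalized CPM (log2 fold change 5.57, SE 0.74, adjusted p = 0.0186). Of these 3 genes Aqp8 varied most within the Meis1-flox/VE-Cre group.

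The remaining higher genes were of mixed kind. Hexim2, an inhibitor of the elongation kinase P-TEFb, stood at 19.2 to 21.1 normalized CPM in all 4 WT libraries and 39.4 to 52.5 in Meis1-flox/VE-Cre (log2 fold change 1.22, adjusted p = 0.0514). Ptp4a3, a protein tyrosine phosphatase, was the most abundant of them, at 100.7 to 120.7 against 191.1 to 209.6 normalized CPM (log2 fold change 0.81, adjusted p = 0.0749). Pim2, a serine/threonine kinase induced by cytokines, gave 2.44 to 7.76 against 16.2 to 30.2 (log2 fold change 2.10, adjusted p = 0.085). Fcna, ficolin A, was counted 3 times in WT and 34 times in Meis1-flox/VE-Cre (ratio 22.9, exact 95% interval 7.20 to 116.5). Hfe2, hemojuvelin, was counted 10 and 79 times (ratio 15.96, interval 8.24 to 34.6).

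The 5 lower genes fell by larger factors than Meis1. Bmyc, a Myc-related gene, was 113.5, 81.8, 126.0 and 76.1 normalized CPM in WT and 16.3, 33.4 and 13.1 in Meis1-flox/VE-Cre (log2 fold change -2.21, SE 0.32, adjusted p = 0.0228). Mtss1l, an actin-bundling membrane protein, went from 47.1 to 63.3 down to 12.7 to 26.3 (log2 fold change -1.43, adjusted p = 0.085). Kcnj5, an inwardly rectifying potassium channel subunit, was 23.3 to 56.2 in WT and 1.31 to 9.10 in Meis1-flox/VE-Cre (log2 fold change -2.98, adjusted p = 0.085). Serpinb2, plasminogen activator inhibitor 2, was counted 131 times in WT and 5 times in Meis1-flox/VE-Cre (adjusted p = 0.085). Nrarp, a feedback regulator of Notch signalling, was counted 61 times in WT and 2 times in Meis1-flox/VE-Cre, at 9.17 to 11.05 normalized CPM in the WT libraries (adjusted p = 0.0514).

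Which genes were called depended on the libraries. No gene was called without WT 4 or without Meis1-flox/VE-Cre 1 by edgeR (565 and 425 genes at an unadjusted p under 0.05), 42 were called without WT 1, 118 without WT 5, 72 without Meis1-flox/VE-Cre 2, 9 without WT 2 and 3 without Meis1-flox/VE-Cre 3. DESeq2 on all 7 libraries called 86 genes, including all 16. Depth went with genotype, and with a term for the UMIs of the median cell none of the 16 was called by edgeR, while 1 other gene was. At an unadjusted p under 0.05 there were then 367 of 7770 genes, and the 16 were among them with direction kept. The 16 had been chosen on these same libraries, so this adds no support to them. With each cell thinned to 5000 UMIs, 2 of the 16 were among 7 genes called.

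The promoters of 12 of the 16 genes were found in RefSeq (GRCm38.p6), 14 windows of 300 bases from 250 before to 50 after a transcription start. They were searched on both strands for letters that factors of this lineage bind: TGACAG for Meis and Pknox, TGATTGAC for Pbx with Meis, AGATAA for the family of Gata1, and AGGAAG for the family of Fli1, called ETS.  The first was found in 1 of the 14 windows, against 19.2% of 32851 promoters, the second in none, against 0.77%, the GATA letters in 4, against 11.2%, and the ETS letters in 5, against 35.4%. The windows of 3 strongly higher genes and of Bmyc are shown because they hold such letters, which stand in capitals, or their reverse complements do. They lie at chr4:46038972-46039271 on the plus strand for Tmod1 (Meis and Pknox letters), chr16:58669958-58670257 on the plus strand for Cpox (GATA letters), chr1:173333454-173333753 on the minus strand for Ackr1 (GATA letters once and ETS letters 3 times) and chr2:25706629-25706928 on the plus strand for Bmyc (GATA letters).
Tmod1: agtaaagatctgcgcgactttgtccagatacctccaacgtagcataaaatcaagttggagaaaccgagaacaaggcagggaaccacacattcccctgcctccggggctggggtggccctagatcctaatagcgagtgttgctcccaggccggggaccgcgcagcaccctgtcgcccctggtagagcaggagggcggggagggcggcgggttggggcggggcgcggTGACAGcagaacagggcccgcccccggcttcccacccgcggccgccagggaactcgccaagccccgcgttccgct
Cpox: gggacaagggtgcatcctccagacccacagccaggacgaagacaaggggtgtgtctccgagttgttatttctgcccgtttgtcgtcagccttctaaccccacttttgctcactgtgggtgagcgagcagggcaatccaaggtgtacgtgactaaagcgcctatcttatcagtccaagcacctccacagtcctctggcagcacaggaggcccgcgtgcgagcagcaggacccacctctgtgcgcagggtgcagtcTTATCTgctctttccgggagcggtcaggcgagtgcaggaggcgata
Ackr1: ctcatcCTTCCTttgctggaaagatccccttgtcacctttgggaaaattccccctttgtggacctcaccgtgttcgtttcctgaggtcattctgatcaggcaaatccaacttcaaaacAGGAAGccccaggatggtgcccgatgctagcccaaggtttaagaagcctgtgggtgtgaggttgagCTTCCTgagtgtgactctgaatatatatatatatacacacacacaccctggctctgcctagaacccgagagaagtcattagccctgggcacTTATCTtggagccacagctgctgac
Bmyc: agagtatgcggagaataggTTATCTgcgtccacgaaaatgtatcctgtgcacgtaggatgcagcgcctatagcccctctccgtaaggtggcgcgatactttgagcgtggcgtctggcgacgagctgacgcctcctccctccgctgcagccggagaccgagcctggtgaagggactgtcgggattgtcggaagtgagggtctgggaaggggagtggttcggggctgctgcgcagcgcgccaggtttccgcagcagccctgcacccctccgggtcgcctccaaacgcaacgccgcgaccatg

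Against WT 5 alone, 10 of 8272 genes were called (0.121%), 9 of them higher (0.109%). Among these were the globins Hba-x, Hba-a2, Hbb-y, Hbb-bh1 and Hba-a1, together with Hsd3b1, Ackr1, Pou2f2 and, lower, Pdcd4. Ackr1 was the only gene called in both comparisons, with a log2 fold change of 3.37 (SE 0.57, adjusted p = 0.0913) against WT 5. Of the other genes called with 4 WT libraries, Tmod1 and Csf2rb kept their direction at log2 fold changes of 2.30 and 4.18 (adjusted p = 0.101 for each), Cpox at 1.61 (adjusted p = 0.251) and Bmyc at -1.84 (adjusted p = 0.168).

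Among the gene lists, the erythroid one had the largest median change, and most of its RNA was hemoglobin. Summed over 7 globin genes, which encode the α-like and β-like chains of embryonic and adult hemoglobin, megakaryocytes held 3830, 7262, 402.2 and 639.7 CPM in WT 1, 2, 4 and 5 and 31153, 8632 and 37354 CPM in Meis1-flox/VE-Cre 1 to 3. WT 1 and WT 2 lay close to Meis1-flox/VE-Cre 2, while WT 4 and WT 5 lay far below all 3. Hbb-bh1, an embryonic β-like globin, was 658.3, 767.3, 22.8 and 188.2 normalized CPM in WT and 8981, 2001 and 12977 in Meis1-flox/VE-Cre. The log2 fold change was 4.29 (SE 0.92, adjusted p = 0.171) with 4 WT libraries and 5.41 (SE 0.92, adjusted p = 0.0913) against WT 5. Hba-x gave 34.6, 1764, 30.9 and 27.0 against 4240, 1194 and 6918 normalized CPM, so that WT 2 lay above Meis1-flox/VE-Cre 2. The paired copies Hba-a1 and Hba-a2, and Hbb-bs and Hbb-bt, are nearly identical, and how reads were shared between them is uncertain.

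Of 12 erythroid genes, 10 were tested, 8 were higher and 2 lower, and 0 were called by edgeR with 4 WT libraries although 6 were higher without overlap, against 5.02% of all genes tested. DESeq2 called 3 of the 10 (86 of all 7770 genes) on the same libraries, Hbb-bh1 and Hbb-bs among them, and 8 had an unadjusted p under 0.05 in edgeR. The list median was a log2 fold change of 2.59, and 4.78 against WT 5, where the medians over all genes tested were -0.01 and 0.01. Globin RNA was also found in the other cells. In EMP it summed to 113 to 218 CPM in WT 1, 2, 4 and 5 and to 1918, 312.7 and 819.2 CPM in Meis1-flox/VE-Cre, and in arterial endothelium to 70.2 to 210.7 CPM over the 7 libraries. In Myeloid cells it was 47.1, 38.1, 2089 and 55.2 CPM in WT 1, 2, 4 and 5, so that WT 4 held more there than in its megakaryocytes, and 257.0, 201.2 and 469.7 CPM in Meis1-flox/VE-Cre. The part of free RNA from red cells in these values was not tested.

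In single cells the globin share was spread widely. The median megakaryocyte took 0.072, 0.012, 0.019 and 0.011% of its UMIs from globin genes in WT 1, 2, 4 and 5, and 1.45, 0.035 and 1.48% in Meis1-flox/VE-Cre 1 to 3. Cells with at least 1% were 8 of 33, 3 of 28, 0 of 24 and 3 of 102 in those WT libraries and 36 of 64, 7 of 65 and 23 of 38 in the Meis1-flox/VE-Cre libraries. These are 24.2, 10.7, 0 and 2.94% against 56.2, 10.8 and 60.5%, so Meis1-flox/VE-Cre 2 lay next to WT 2 and the other 2 libraries lay above every WT library. The exact 95% interval was 43.3 to 68.6% for Meis1-flox/VE-Cre 1 and 43.4 to 76.0% for Meis1-flox/VE-Cre 3, and the highest WT interval, of WT 1, was 11.1 to 42.3%, for counting error only. The highest single values were 40.5% in Meis1-flox/VE-Cre 3, 34.0% in Meis1-flox/VE-Cre 1 and 33.7% in WT 2. None of the cells with at least 1% was called a doublet. Doublets were simulated by pairing cells of the same library, and no annotated cell type was a red cell. A megakaryocyte joined to a red cell could therefore escape the call.

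**Figure D2:**
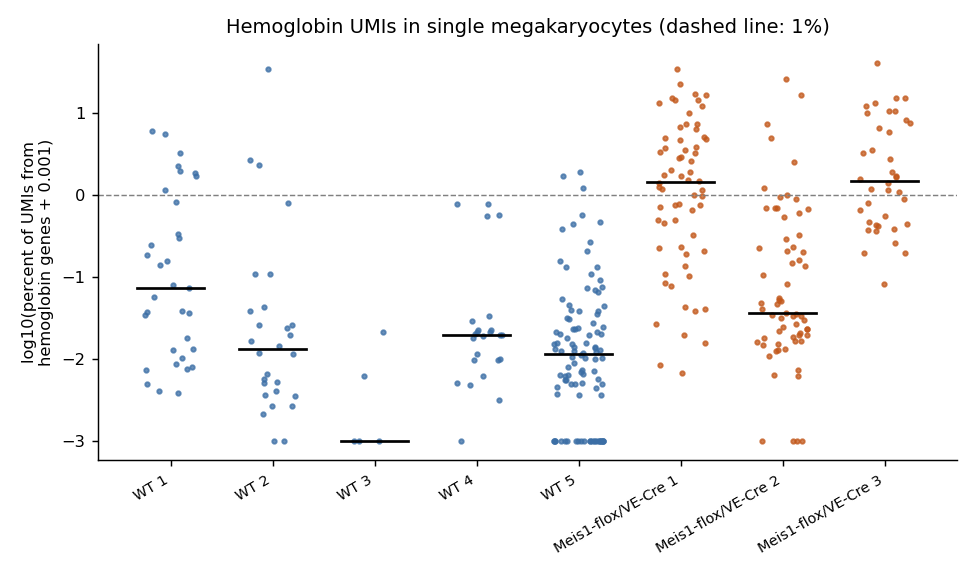
Percent of a cell's UMIs from 7 globin genes in each of the 359 megakaryocytes, on a log10 scale after adding 0.001, by library (WT blue, Meis1-flox/VE-Cre orange), with black bars at the medians and a dashed line at 1%. The medians of Meis1-flox/VE-Cre 1 and 3 lie above the dashed line and those of all other libraries below it.

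Globin-rich cells still expressed megakaryocyte genes, with at least 5 of the 12 markers detected in each. In Meis1-flox/VE-Cre the 66 cells with at least 1% globin UMIs held 12848 CPM of the 12 markers together, against 22063 CPM in the 101 cells below 1%. In WT the order was the other way, with 53702 CPM in 14 cells and 27624 CPM in 173 cells. These values pool libraries, and 58 of the 101 cells came from Meis1-flox/VE-Cre 2. Within the Meis1-flox/VE-Cre libraries the levels were 14990 against 16622, 6094 against 27340 and 12084 against 17877 CPM. Between globin-rich and other cells of the same library, Csf2rb was 215.6 against 21.5 CPM in Meis1-flox/VE-Cre 1, 26.8 against 32.3 in Meis1-flox/VE-Cre 2 and 43.5 against 65.1 in Meis1-flox/VE-Cre 3. Aqp8 was 337.5 against 28.2, 71.4 against 12.7 and 118.7 against 71.7 CPM, higher in the globin-rich cells of all 3. Below 1%, Csf2rb stood at 2.48 to 9.94 CPM in the 4 WT libraries and 21.5, 32.3 and 65.1 in Meis1-flox/VE-Cre, Cpox at 31.5 to 47.9 and 134.3, 78.6 and 110.8, Aqp8 at 0.761 to 2.49 and 28.2, 12.7 and 71.7, and Tmod1 at 5.79 to 11.2 and 29.8, 25.4 and 45.6. With the globin-rich cells left out of every library, a comparison added after the data were seen, 6 of 7112 genes were called, and 5 of these were among the 16: Aqp8, Bmyc, Ackr1, Cpox and Csf2rb. The log2 fold change was then 2.89 for Csf2rb and 4.61 for Aqp8, against 3.84 and 5.57 with all cells. The other was Hbb-bh1, which had been among the genes used to leave cells out.

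Markers of granulocytes, macrophages and mast cells were low beside those of megakaryocytes, whereas the erythroid genes, at 31347 and 37562 CPM in Meis1-flox/VE-Cre 1 and 3, exceeded the 12 megakaryocyte markers there (15857 and 14273 CPM). Granulocyte markers summed to 13.1, 13.03, 120.8 and 37.8 CPM in WT and 29.9, 152.4 and 129.3 CPM in Meis1-flox/VE-Cre, with Ctsg, Camp, Ngp and Ltf at 0, and all 3 granulocyte genes tested were higher (median log2 fold change 1.76, and 1.504 against WT 5), 1 at an unadjusted p under 0.05 and 0 called by edgeR or DESeq2. Mast cell markers summed to 0 to 0.828 CPM. Macrophage markers were 64.3, 257.0, 192.8 and 184.7 CPM in WT and 404.7, 260.8 and 182.2 CPM in Meis1-flox/VE-Cre, and 7 of the 8 macrophage genes tested were higher (median log2 fold change 0.88, and 0.86 against WT 5), with 0 called in the genotype comparison by edgeR or DESeq2 and 1 at an unadjusted p under 0.05. Their part in the comparison was not tested.

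No gene of the 6 platelet lists that follow was called in the genotype comparison by edgeR or DESeq2. By edgeR the difference from EMP was called for Runx1 (-0.83, SE 0.16, adjusted p = 0.0899) and Fcer1g (-1.10, SE 0.21, adjusted p = 0.081). The difference from Myeloid was called for F13a1, a coagulation factor XIII subunit (-1.61, SE 0.26, adjusted p = 0.0579). In megakaryocytes the log2 fold changes of Runx1, Fcer1g and F13a1 were -0.55, -0.38 and -0.93. In the cell type compared they were 0.30, 0.70 and 0.62. Runx1 and F13a1 were named after their values were seen. Of 18 transcription factors of megakaryocytes 17 were tested, 10 higher and 7 lower, with a median log2 fold change of 0.07 and no call (5 at an unadjusted p under 0.05). Mef2c gave 0.23 (SE 0.16), Zfpm1, the cofactor of Gata1, 0.07 (SE 0.14), Lmo2 -0.74 (SE 0.22) and Fli1 -0.51 (SE 0.18), with adjusted p of 0.329 or more by edgeR. Lmo2, the bridging protein of the Tal1 complex, was 405.0, 244.7, 320.2 and 299.9 normalized CPM in WT and 171.7, 247.7 and 147.1 in Meis1-flox/VE-Cre, where Meis1-flox/VE-Cre 2 overlapped WT.

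Surface receptors of platelets were lower for 14 of 20 genes (median log2 fold change -0.29), but the median was -0.02 against WT 5. Lower without overlap were 4 of the 20, against 4.61% of all genes tested. These were Gp9, Treml1, Cd9 and Gp1ba, with log2 fold changes of -1.75, -1.47, -0.87 and -0.84. Against WT 5 alone their values were -1.35, -1.18, -0.43 and -0.17. Cd9, a tetraspanin of the platelet surface, was 3013, 1576, 1277 and 1328 normalized CPM in WT and 882.8, 1275 and 799.8 in Meis1-flox/VE-Cre (log2 fold change -0.87, SE 0.31, adjusted p = 0.402). Clec1b, the podoplanin receptor CLEC-2, gave -0.69 (SE 0.33), Fcer1g -0.38 (SE 0.23) and Gp1bb 0.20 (SE 0.25), and none passed the threshold (6 of the 20 genes at an unadjusted p under 0.05).

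Genes of the α granule were lower for 12 of 15 (median -0.49, and -0.32 against WT 5). Pf4, platelet factor 4, was 38080, 25197, 18401 and 17367 normalized CPM in WT and 11796, 18384 and 11594 in Meis1-flox/VE-Cre. Meis1-flox/VE-Cre 2 lay within the WT range and the other 2 below it (log2 fold change -0.83, SE 0.28, adjusted p = 0.38). Ppbp, pro-platelet basic protein, was 933.7 to 1818 in WT and 206.9, 1139 and 51.2 in Meis1-flox/VE-Cre (log2 fold change -1.38, SE 0.73, adjusted p = 0.626). Thrombospondin Thbs1 gave 0.20 (SE 0.30). Of the 15 genes 5 had an unadjusted p under 0.05.

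Dense granule genes were lower for 9 of 12 (median -0.27), signalling genes for 14 of 16 (median -0.28) and proplatelet cytoskeleton genes for 16 of 21 (median -0.15). Against WT 5 those medians were -0.08, 0.02 and -0.07. WT 1, whose megakaryocytes were shallow for their library and rich in platelet RNA (44096 CPM of the 12 markers against 23273 to 31563 CPM in WT 2, 4 and 5), moved with this shift, and its part in it was not tested. Unadjusted p fell under 0.05 for 3, 2 and 0 genes of these lists.

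**Figure D3:**
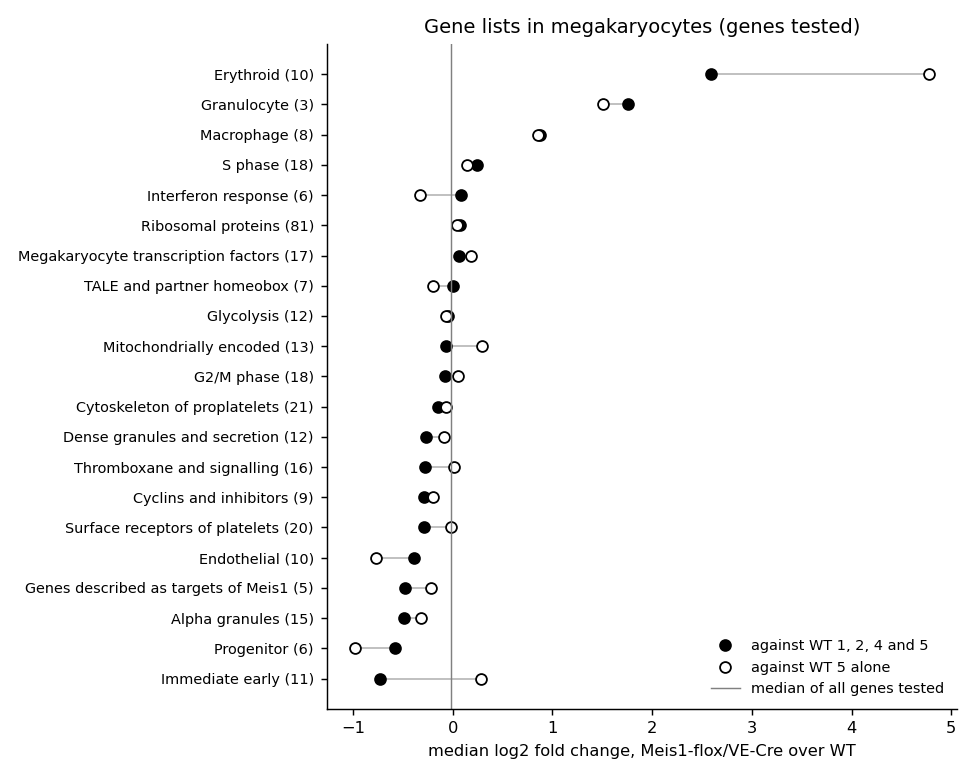
Median log2 fold change of each gene list, Meis1-flox/VE-Cre over WT, against 4 WT libraries (filled) and against WT 5 alone (open), with the number of genes tested in brackets and a grey line at the median of all genes. The erythroid list lies farthest from the line, at 2.59 and 4.78. The megakaryocyte transcription factors lie at 0.07 and 0.18. The other platelet lists lie between -0.49 and -0.15 with 4 WT libraries and nearer to the line with WT 5 alone.

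Of 18 genes of S phase, which serve DNA synthesis, 17 were higher, 5 without overlap (5.02% of all genes tested were higher without overlap), with a median log2 fold change of 0.24 (0.15 against WT 5). The most abundant, Slbp, the histone mRNA binding protein, gave 0.24 (SE 0.16, adjusted p = 0.69). No S phase gene was called in the genotype comparison by edgeR or DESeq2 (2 at an unadjusted p under 0.05). Ccne2, an S phase gene named after its value was seen, differed from EMP by 1.07 (SE 0.22, adjusted p = 0.0899, edgeR). Its log2 fold change was 0.93 (SE 0.25, adjusted p = 0.297) in megakaryocytes and -0.10 in EMP. Of 18 genes of G2 and M phase 7 were higher and 11 lower (median -0.08). Among cyclins and inhibitors, Cdkn2d, which encodes the Cdk4 and Cdk6 inhibitor p19, was 583.0, 383.6, 392.5 and 333.1 normalized CPM in WT and 193.4, 241.6 and 174.7 in Meis1-flox/VE-Cre without overlap (log2 fold change -1.05, SE 0.21, adjusted p = 0.145), and DESeq2 called it. The D-type cyclin Ccnd3 gave 0.14 (SE 0.19).

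Partners of Meis1 and genes described as its targets were not called by edgeR. Of 13 TALE and partner homeobox genes 7 were tested, 3 higher and 4 lower, with a median close to that of all genes, and Meis1 was the 1 gene with an unadjusted p under 0.05 and the 1 that DESeq2 called. Of 11 genes described as targets 5 were tested, 4 of them lower (median -0.48, and -0.21 against WT 5), with Pf4 and Ccnd3, given above, the most abundant.

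Of 6 progenitor genes tested 5 were lower (median -0.58), with Cd34 at -0.48 (SE 0.35), Angpt1 at -0.69 (SE 0.31) and Mycn at -1.19 (SE 0.32, adjusted p = 0.297). Among 12 glycolysis genes 5 were higher, with Gapdh at 0.79 (SE 0.30) and Ldha at -0.43 (SE 0.17). Of 81 ribosomal protein genes 50 were higher (median 0.07), with Rpl41 at 0.58 (SE 0.22). The ribosomal RNA repeats Gm42418 and AY036118 were lower in every Meis1-flox/VE-Cre library than in every WT library (log2 fold changes -1.25 and -1.82, adjusted p = 0.326 and 0.216), and such repeats vary with library preparation. Immediate early genes, which respond to handling, had a median of -0.73 with 4 WT libraries and 0.28 against WT 5. Of 13 mitochondrially encoded genes 5 were higher (median -0.06, but 0.29 against WT 5), of 6 interferon response genes 4 (median 0.08, but -0.33 against WT 5) and of 10 endothelial genes 2 (median -0.39, and -0.77 against WT 5). In the genotype comparison none of these lists held a gene called by edgeR, and DESeq2 called both repeats and none of the other genes.

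The same genotype contrast in the neighbouring blood types showed where megakaryocytes differed. In EMP and in Myeloid cells of the same 7 libraries, 297 of 9245 genes (3.21%) and 271 of 11607 genes (2.33%) were called. The difference between the contrasts passed the threshold for 27 of 9902 genes against EMP (0.273%), 8 with the larger value in megakaryocytes (0.0808%), and 19 with the smaller (0.192%). Against Myeloid it did for 11 of 11273 genes (0.0976%), 3 with the larger value in megakaryocytes (0.0266%) and 8 with the smaller (0.071%). Megakaryocytes and the other types share the WT and Meis1-flox/VE-Cre libraries, so their contrasts are not independent.

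Csf2rb differed from both. Its log2 fold change was 3.84 in megakaryocytes, 0.54 (SE 0.21) in EMP and 0.81 (SE 0.16) in Myeloid cells, and the differences were 3.25 (SE 0.45, adjusted p = 0.0169) and 2.92 (SE 0.47, adjusted p = 0.0579). In WT its level was 2.48 to 8.72 CPM in megakaryocytes and 37.6 to 62.7 CPM in EMP, and in Meis1-flox/VE-Cre it was 112.6, 31.7 and 51.7 CPM in megakaryocytes and 82.3, 70.9 and 45.7 CPM in EMP. Cpox also differed from both, by 1.498 (SE 0.26, adjusted p = 0.0498) against EMP and 1.43 (SE 0.22, adjusted p = 0.0579) against Myeloid, with fold changes of 0.23 and 0.24 in those types. Tmod1 differed from EMP by 2.40 (SE 0.37, adjusted p = 0.0293) and Aqp8 by 3.50 (SE 0.64, adjusted p = 0.0687). Bmyc was lower in all 3 types, at -2.21 in megakaryocytes, -0.74 (adjusted p = 0.0631) in EMP and -1.06 (adjusted p = 0.0223) in Myeloid cells, and fell further in megakaryocytes than in EMP by 1.47 on the log2 scale (SE 0.24, adjusted p = 0.041). Serpinb2 was lower in Myeloid cells as well, at -3.45 (SE 0.46, adjusted p = 0.0118).

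Other genes of small p in these interactions had a negative difference. Ifitm2, an interferon-induced membrane protein, gave 0.18 (SE 0.17, adjusted p = 0.81) in megakaryocytes and 1.54 (adjusted p = 3.86e-05) in EMP, a difference of -1.34 (SE 0.14, adjusted p = 0.00194). Spns1, a lysosomal phospholipid transporter, gave differences of -1.30 (SE 0.18, adjusted p = 0.0169) and -1.41 (SE 0.21, adjusted p = 0.0579) against EMP and Myeloid, and Gmfg, a regulator of actin branching, of -1.36 (SE 0.20, adjusted p = 0.0203) against EMP. Cyba, a subunit of the NADPH oxidase, and Klk8 gave -1.54 (SE 0.24) and -1.27 (SE 0.20) against Myeloid (adjusted p = 0.0579 for each).

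**Figure D4:**
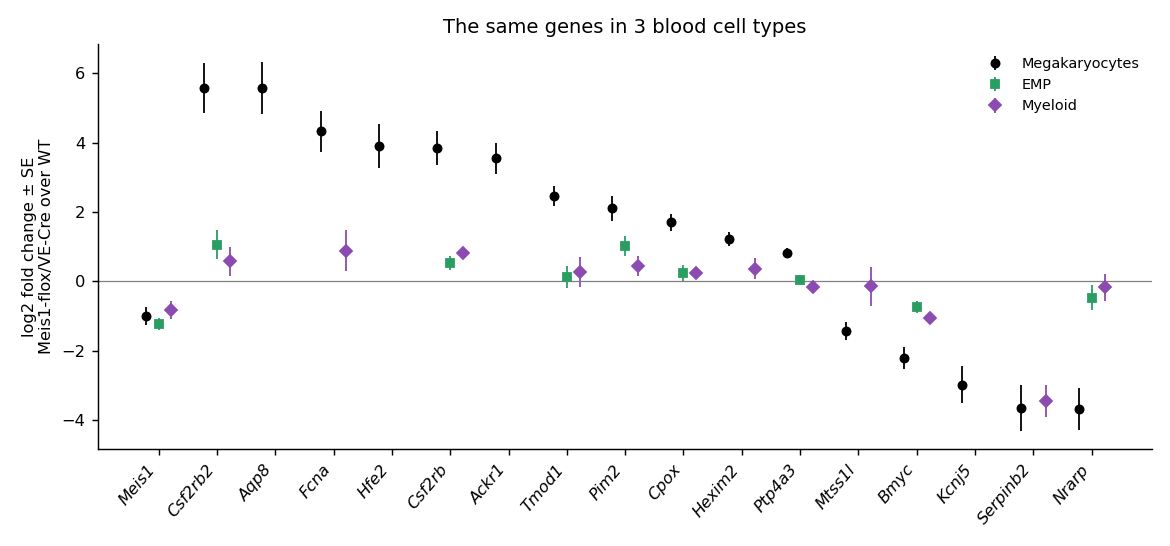
Log2 fold change, Meis1-flox/VE-Cre over WT, of Meis1 and the 16 called genes in megakaryocytes (black circles), EMP (green squares) and Myeloid cells (purple diamonds), with bars of 1 SE from edgeR. A missing symbol means that the gene was too low to be tested in that type, and Meis1 itself lies between -1.22 and -0.81 in the 3 types.

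The share of megakaryocytes did not differ beyond its spread. They made up 2.15, 1.84, 0.768, 0.924 and 4.82% of all cells in WT 1 to 5 and 2.87, 2.65 and 1.84% in Meis1-flox/VE-Cre 1 to 3. WT 5 held the highest share of all, and the Meis1-flox/VE-Cre libraries lay inside the WT range. The means were 2.10 ± 1.63% (SD, n = 5) and 2.45 ± 0.54% (SD, n = 3), with a difference of 0.354 percentage points and p = 0.821 in a two-sided exact permutation test, for which 0.0179 is the smallest p possible. Against WT 5 alone the difference was -2.37 percentage points, and as a share of blood cells it was -0.114. The exact 95% interval of single libraries was as wide as 0.25 to 1.78% for the 5 cells of WT 3 and 3.95 to 5.83% for WT 5, for counting error only. A share of sorted CD31+ cells says nothing of the number of megakaryocytes per embryo.

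RNA content was set against the other cells of the same library. The median megakaryocyte held 0.794, 1.74, 1.75 and 1.60 times the UMIs of the median other cell in WT 1, 2, 4 and 5, and 1.45, 1.46 and 1.05 times in Meis1-flox/VE-Cre. WT 1 was the only library in which megakaryocytes held fewer UMIs than other cells. On the log2 scale the means were 0.49 ± 0.55 (SD, n = 4) and 0.38 ± 0.27 (SD, n = 3), and the difference of -0.10 did not exceed the spread (two-sided exact permutation test, p = 0.8).

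Surface tags were read in WT 1, 2 and 5 and in all Meis1-flox/VE-Cre libraries, and are given as the mean count per megakaryocyte over the mean per other cell of the library. With 3 libraries in each group, the exact permutation test cannot go below p = 0.1. CD41 tags were 44.2, 44.0 and 39.9 times higher on megakaryocytes than on other cells in WT and 81.2, 55.1 and 61.6 times in Meis1-flox/VE-Cre. On the log2 scale the means were 5.41 ± 0.08 (SD, n = 3) and 6.02 ± 0.29 (SD, n = 3), with p = 0.1 in the two-sided exact permutation test. The RNA of Itga2b, which encodes CD41, gave a log2 fold change of -0.44 (SE 0.29, adjusted p = 0.7). Set against endothelial cells only, the log2 difference was 1.09 in place of 0.61 (exact permutation test, p = 0.1), and medians of the tag counts gave -0.01.

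CD43 tags, of the sialomucin encoded by Spn, separated the groups most. Megakaryocytes carried 1.45, 1.91 and 1.53 times the count of other cells in WT 1, 2 and 5 and 0.494, 0.386 and 0.42 times in Meis1-flox/VE-Cre 1 to 3. The log2 means were 0.69 ± 0.21 (SD, n = 3) and -1.21 ± 0.18 (SD, n = 3), a difference of -1.91 at the smallest p the exact permutation test allows, 0.1. The mean per megakaryocyte in WT 5 was 59.4 tags against 27.8, 25.5 and 7.79 in Meis1-flox/VE-Cre, while other cells carried 38.9 in WT 5 and 56.2, 65.9 and 18.6 in Meis1-flox/VE-Cre. The ratio also depends on the mixture of other cells in each library, and its part in the CD43 difference was not tested. Spn RNA was too low in megakaryocytes to be tested. CD117 (c-kit) tags were 2.09, 2.32 and 1.54 times those of other cells in WT and 1.41, 1.53 and 1.34 times in Meis1-flox/VE-Cre, a log2 difference of -0.46 (exact permutation test, p = 0.1). CD45-2 and CD27 tags overlapped between the groups (p = 0.3 and 0.6, exact permutation tests), and CD44 was tagged in 1 WT library only, at a log2 ratio of 0.46 against 0.47, -0.56 and -0.06. No adjustment over the 6 tags was made, since no p lay below 0.1.

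**Figure D5:**
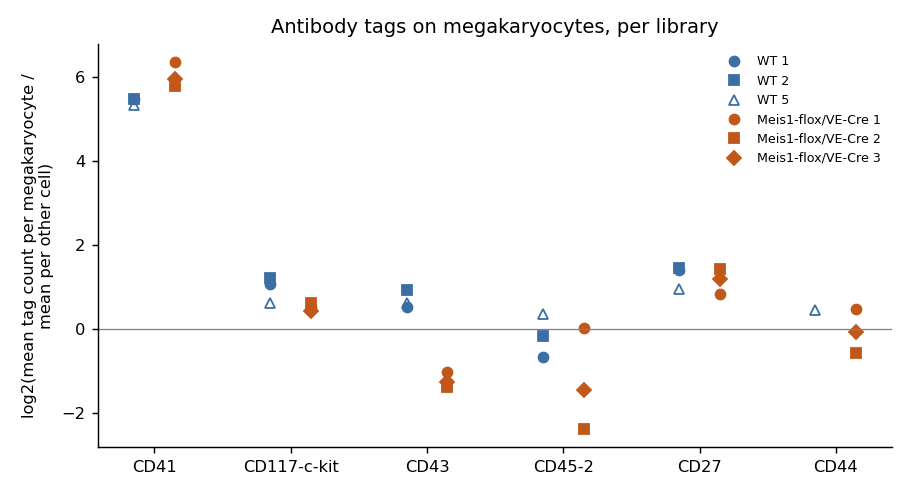
Antibody tags on megakaryocytes, as log2 of the mean count per megakaryocyte over the mean per other cell, 1 point per library with tags (WT blue, WT 5 as an open triangle, Meis1-flox/VE-Cre orange). For CD43 the WT points lie between 0.54 and 0.93 and the Meis1-flox/VE-Cre points between -1.37 and -1.02, and for CD41 all points lie above 5.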

How the data were processed

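Each library was a 10x Chromium 3′ library of CD31+ cells. The authors aligned reads to mm10 with Cell Ranger 3.0.2, kept cells with over 2000 genes and under 10% mitochondrial reads, integrated the libraries in Seurat (2000 features, 50 components) and named clusters by hand with the genotypes together. The deposited values used here were raw counts of UMIs per cell and of antibody tags, with the cell annotation, in 15168 cells and 28014 genes.

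Counts were summed per library over megakaryocytes (at least 10 cells) and tested with edgeR 4.0.16 (quasi-likelihood, TMM, filterByExpr, Benjamini-Hochberg adjusted p under 0.1) in R 4.3.3, over WT 1, 2, 4 and 5 and the 3 Meis1-flox/VE-Cre libraries. Normalized CPM are TMM-scaled. Interactions compared the genotype effect with that in EMP and Myeloid cells, with the library as a block. DESeq2 1.42.0 was an alternative. Shares, tag ratios and single values were compared by exact permutation tests (scipy 1.17.1), and doublets called with scanpy 1.11.5 (83 of 15168 cells, 0.547%; 3 megakaryocytes). On simulated data for the genotype comparison over 7788 genes, 49% of genes changed by 1.5 on the log2 scale and 97% of those changed by 2.5 were found, with 8.18% false calls. Changes were placed in the more abundant genes only, and every gene had the same dispersion. These shares therefore do not cover the called genes of few counts. For the interactions 12 and 62% were found against EMP, and 4 and 58% against Myeloid. Fewer were also found in the repeat against WT 5 alone.

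The members and gene lists were chosen with earlier results of these data known. By rule the text names Meis1, called genes of mean log2 CPM at least 5 that do not overlap between groups, up to 4 of the most abundant genes per list, and up to 5 genes per interaction. This gave Aqp8, Cpox, Hexim2, Ptp4a3, Bmyc and Mtss1l. The other called genes, those called against WT 5 alone, Itga2b, Gp9, Treml1 and Gp1ba were named after their values were seen. Some genes the rule would name are not reported here. Each library is a pool of embryos, so p-values measure the spread between pools.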

Additional observations from a re-analysis of the deposited data

Results flagged for a closer look

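In 7 of 51 groups of 4 or 5 libraries, 1 library stood apart from the others of its group by Dixon's criterion, which chance meets in about 1 of 20 groups. WT 1 had a log2 ratio of -0.33 for UMIs per megakaryocyte, and the highest normalized CPM of Clec1b (1940) and Ccnd3 (632.0). WT 2 had the highest Hba-x (1764) and Alas2 (28.2). WT 5 had the only Csf2rb2 counts in WT (0.818) and the lowest Ptp4a3 (100.7).

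The genotype effect differed between megakaryocytes and EMP, by an interaction term, for 27 genes. Among the genes named, the difference was -1.34 for Ifitm2, -1.30 for Spns1, 3.25 for Csf2rb, -1.36 for Gmfg and 2.40 for Tmod1 on the log2 scale. It was -1.47 for Bmyc, 1.498 for Cpox, 3.50 for Aqp8, -1.10 for Fcer1g and 4.59 for Csf2rb2. Runx1 and Ccne2, named after their values were seen, gave -0.83 and 1.07. Against Myeloid cells 11 genes differed, with -1.41 for Spns1, 1.43 for Cpox, -0.80 for Ifitm2, -1.54 for Cyba, -1.27 for Klk8 and 2.92 for Csf2rb.

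A row for CreERT2, which the comparisons do not use, held 34 UMIs over all cells of the Meis1-flox/VE-Cre libraries (12, 3 and 19) and 0 in every WT library. None of them lay in a megakaryocyte.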

How the results depend on the processing

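The 16 genotype calls stayed 16 with RLE size factors and, chosen after seeing the data, with hemoglobin genes left out of the counts. Sums of at least 20 cells and cells with at least 3 markers kept every library and cell of the main fit. Their 16 calls repeat that fit and carry no weight. The count became 86 with DESeq2, 273 with no filter on low counts, 25 with WT 3, 9 without doublets, 7 with cells thinned to 5000 UMIs (2 of the 16 among them), 1 with the median UMIs per cell as covariate (none of the 16), 10 with WT 5 as the only WT library, 8 at an adjusted p under 0.05 and 5 by Bonferroni. Also chosen after seeing the data, it was 6 without cells of 1% hemoglobin UMIs or more and 180 without both WT 1 and Meis1-flox/VE-Cre 2, which were picked for their shallow megakaryocytes and low hemoglobin, so that the last count carries no weight. Leaving out 1 library gave 0 to 118. Deviations from the group mean in same-numbered libraries gave r of 0.106, -0.0635 and 0.0434, and other pairs gave -0.102 to 0.0715. The labels do not say whether the numbers mark a shared litter or day, and these few pairs cannot decide it. The replicate block gave 126 calls, 9 of them among the 16, and a difference of 0.869 percentage points in the share of megakaryocytes.

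The 27 interactions against EMP became 16 with RLE size factors, 320 with no filter, 63 with WT 5 alone and 11 at an adjusted p under 0.05, and 1 to 54 without 1 library. The 11 against Myeloid became 324 with no filter, 49 with DESeq2, 42 with WT 5 alone, 0 at an adjusted p under 0.05 by edgeR (858 at an unadjusted p under 0.05) and 0 to 45 without 1 library.

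The share of megakaryocytes reversed to -0.114 as a percent of blood cells and to -2.37 with WT 5 alone (0.0204 to 1.03 without 1 library). The Meis1 difference in CPM was -59.2 with WT 3 (p = 0.0179, exact permutation test). The share of cells with a Meis1 UMI differed by -20.0 percentage points at 3000 UMIs (p = 0.0286, exact permutation test), -37.8 without thinning and -48.6 for at least 2 UMIs. UMIs per megakaryocyte ranged from -0.375 to 0.0532 without 1 library, with 0.000291 without WT 2 and 0.00405 without WT 4. The CD41 difference was -0.00877 from medians. Among named genes Gp1bb turned to -0.084 and Gapdh to -0.0300 with the depth covariate, Thbs1 to -0.0032 with thinning and Tmsb4x to 0.0606 with WT 5 alone. The cause was not tested for any of these. Over the named genes, 934 alternative values kept direction and side of the threshold, 149 lost the call, 59 gained one and 4 reversed. The values kept include those of the settings that repeat the main fit.

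Depth limits low genes: Csf2rb2, Fcna, Nrarp, Serpinb2 and Hfe2 rest on 2 to 10 counts in 1 group.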
